A study of Mus musculus with 6 samples.

Results

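The 33 genes described here are imprinted genes of the mouse, chosen by name and not by a measured value. A gene row of the table belongs to the set when its symbol, read without the chromosome tag that follows it, is one of the 33 names. All 33 had a row, out of 19532 gene rows. Transcripts of single mouse embryonic stem cells were counted with SORT-seq, a plate-based assay in which each cell is sorted into a well and the 3' ends of its transcripts are counted with unique molecular identifiers (UMIs). The lines IB10 and R1, both long established from mouse embryos, were each sampled once in each of 3 cultures, which gave 6 libraries of 188 wells. Shared by all groups were N2B27 medium without serum, plastic coated with gelatin (0.1%) and serum, and LIF, a cytokine that sustains embryonic stem cells. The primed_4d cells had received 12 ng/ml FGF2, 20 ng/ml human Activin A and 2 µM IWP2, which blocks WNT secretion, for 4 days, and stood at passage 28 in IB10 and 24 in R1. The rosette_LIM cells had received 2 µM IWP2 and 0.1 µM PD325901, a MEK inhibitor, for 5 passages in IB10 and 6 in R1, and stood at passage 33 in IB10 and 28 in R1. The LIF_2i cells, the naive culture, were kept with 3 µM CHIR99021, a GSK3 inhibitor that activates WNT signalling, and 0.1 µM PD325901, at passage 28 in IB10 and 24 in R1. The primed_4d against LIF_2i comparison therefore changes every supplement but LIF at once, and passage number differs between the lines in every culture.

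An imprinted gene is transcribed mainly from the copy inherited from one parent, because a control region carries DNA methylation from only one germline. Imprinted genes lie in clusters that often pair paternally expressed genes with maternally expressed ones and with a long noncoding RNA that silences neighbours. Many of them set fetal and placental growth. The counts used here do not separate the parental alleles, so every value is the sum over both copies, and "maternally expressed" or "paternally expressed" below is background from other work.

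The libraries held between 4675388 and 7806882 UMIs in genes. Shallow wells, with fewer than 6000 UMIs, numbered 84 of 188 in R1 primed_4d and 4 to 38 elsewhere. In the primed_4d libraries the naive markers Klf4, Esrrb, Tfcp2l1 and Tbx3 summed to 87.5 to 107 CPM (UMI counts scaled to library size, with TMM factors), against 1218 to 1492 CPM in LIF_2i. The primed markers Pou3f1, Fgf5, Dnmt3b and Otx2 summed to 1120 to 1140 CPM in primed_4d and 83.0 to 97.1 CPM in LIF_2i. Rosette_LIM stood at 942 to 987 CPM of the naive markers and 54.8 to 80.5 CPM of the primed ones. The primed marker Otx2 was at 18.4 CPM in IB10 and 13.9 CPM in R1 in primed_4d, 15.2 and 13.4 CPM in rosette_LIM and 3.85 and 1.72 CPM in LIF_2i. The sums of both marker lists thus set primed_4d apart from the other cultures, while the primed sum did not place rosette_LIM above LIF_2i. Dnmt3b, the largest part of that sum, was lower in rosette_LIM (56.3 CPM in IB10 and 32.5 CPM in R1) than in LIF_2i (89.8 and 76.0 CPM). Otx2 stood higher in rosette_LIM than in LIF_2i in both lines, and so did Pou3f1 (8.60 and 7.83 CPM against 3.08 and 5.15 CPM). The scarce Fgf5 was at 0.391 and 1.04 CPM in rosette_LIM and 0.385 and 0.143 CPM in LIF_2i. Of other cell types, 8 primitive endoderm markers summed to 8.34 to 16.9 CPM in primed_4d, 6.45 to 9.40 CPM in rosette_LIM and 6.03 to 7.58 CPM in LIF_2i. The sums of 8 trophoblast markers were 7.58 to 13.5 CPM in primed_4d, 18.9 to 21.1 CPM in rosette_LIM and 31.2 to 36.5 CPM in LIF_2i. The 4 mesendoderm markers summed to 2.46 to 3.21 CPM in primed_4d, 6.26 to 7.23 CPM in rosette_LIM and 11.6 to 13.2 CPM in LIF_2i. For 4 markers of the 2-cell-like state the sums were 16.7 to 29.1 CPM in primed_4d, 12.0 to 21.1 CPM in rosette_LIM and 10.004 to 23.6 CPM in LIF_2i. The 6 fibroblast markers summed to 11.1 to 11.4 CPM in primed_4d, 3.32 to 8.87 CPM in rosette_LIM and 6.01 to 7.31 CPM in LIF_2i, with Col3a1 and Lum at 0 in every library. The part of these other cell types in the results below was not tested.

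Promoter sequence is shown for members that turned out to move in opposite directions, together with 1 stretch that serves a pair of members. Whether these stretches hold the region that controls the imprint of a gene was not checked. Each window runs from 250 bases before to 50 bases after a transcript start, 5′ to 3′ on the gene's own strand, from RefSeq on GRCm38.p6. Capitals mark every CpG and every match, on either strand, of TGCCGC, the methylated hexanucleotide that the imprint-protecting zinc finger protein ZFP57 is known to bind; on the opposite strand it reads GCGGCA, and it contains 1 CpG itself. Meg3 (chr12:109540746-109541045, plus strand) and Phlda2 (chr7:143502475-143502774, minus strand) were higher in primed_4d. Plagl1 (chr10:13090582-13090881, plus strand) and Zrsr1 (chr11:22971755-22972054, plus strand) were lower. Peg3 (chr7:6730370-6730669, minus strand) shares 263 bases of its window with that of Usp29, which is read in the opposite direction.
Meg3: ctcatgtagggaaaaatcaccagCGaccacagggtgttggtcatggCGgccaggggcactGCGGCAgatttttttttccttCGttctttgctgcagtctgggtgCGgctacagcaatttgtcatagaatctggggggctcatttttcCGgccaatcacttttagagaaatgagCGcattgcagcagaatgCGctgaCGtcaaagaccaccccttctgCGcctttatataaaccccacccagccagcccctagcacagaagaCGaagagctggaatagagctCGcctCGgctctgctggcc
Phlda2: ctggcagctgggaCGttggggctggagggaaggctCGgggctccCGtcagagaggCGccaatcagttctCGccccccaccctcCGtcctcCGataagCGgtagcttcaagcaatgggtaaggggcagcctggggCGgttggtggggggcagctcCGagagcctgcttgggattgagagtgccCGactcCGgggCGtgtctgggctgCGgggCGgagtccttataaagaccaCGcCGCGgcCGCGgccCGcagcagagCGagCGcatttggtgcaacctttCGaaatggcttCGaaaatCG
Plagl1: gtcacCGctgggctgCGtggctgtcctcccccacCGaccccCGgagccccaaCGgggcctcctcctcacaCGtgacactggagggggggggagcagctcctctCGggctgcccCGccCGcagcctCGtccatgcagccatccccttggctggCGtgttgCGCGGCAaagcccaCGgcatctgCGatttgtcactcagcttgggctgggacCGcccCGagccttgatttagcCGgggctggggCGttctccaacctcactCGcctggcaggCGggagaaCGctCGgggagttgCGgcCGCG
Zrsr1: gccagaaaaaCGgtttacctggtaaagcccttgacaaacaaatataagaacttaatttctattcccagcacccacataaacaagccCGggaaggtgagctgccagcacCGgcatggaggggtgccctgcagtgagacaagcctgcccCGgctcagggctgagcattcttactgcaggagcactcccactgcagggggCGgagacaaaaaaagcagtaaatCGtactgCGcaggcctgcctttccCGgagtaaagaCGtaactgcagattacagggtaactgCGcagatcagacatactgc
Peg3: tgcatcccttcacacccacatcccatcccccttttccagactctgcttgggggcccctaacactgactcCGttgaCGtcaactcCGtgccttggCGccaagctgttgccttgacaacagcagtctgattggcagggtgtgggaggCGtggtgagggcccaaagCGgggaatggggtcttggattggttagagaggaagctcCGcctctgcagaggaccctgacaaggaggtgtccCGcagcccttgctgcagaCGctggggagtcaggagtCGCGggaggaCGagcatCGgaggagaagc
The Plagl1 and Phlda2 windows hold 26 CpG each, Meg3 and Peg3 13 each and Zrsr1 10. Meg3 and Plagl1 have 1 match of the hexanucleotide each, and the other 3 windows shown have none. RefSeq windows of these 300 bases were matched by symbol for 27 of the 33 members, giving 41 windows with a median of 15 CpG, against 7 CpG over all 32851 windows of the table. The hexanucleotide stood in 11 of the 41 windows (26.8%), which belong to 10 genes, and in 11.6% of all windows. Since the hexanucleotide holds a CpG and the members' windows are richer in CpG, the shares are not like for like. The part of CpG content in this difference was not tested. A match describes the sequence and says nothing of binding. No window was matched for Sgce, Peg10, Impact, Kcnq1, H19 and Cdkn1c.

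How imprinted genes stood in cells brought towards primed pluripotency was asked by setting primed_4d against LIF_2i. The filter on low counts kept genes with about 1.8 CPM or more in at least 2 libraries, and 27 members passed it. Igf2 met the cut in 2 primed_4d libraries, 1 rosette_LIM library and 0 LIF_2i libraries. Its pass thus needed primed_4d, which limits what its call against LIF_2i can show, and it stays in the counts. Magel2 passed through the primed_4d libraries alone, so it had to differ, and it is left out of the counts of members called in primed_4d. Of the other 26 members, 17 were higher and 2 lower in primed_4d (edgeR quasi-likelihood test on library sums, Benjamini-Hochberg adjusted p under 0.05, 2 libraries per condition with cell line as a block). Among all 12098 genes tested, 37.9% were called, 18.3% higher and 19.6% lower, and the 26 members stood at 73.1%. The members' median log2 fold change was 0.95, against −0.009 over all genes. Members were also grouped by the parental copy used according to other work. That use can be limited to some tissues, as for Ube3a in neurons, and was not checked here for any member. Of 11 tested maternally expressed members 6 were higher and none lower, and of 14 paternally expressed members 10 were higher and 2 lower. Gnas, which has both kinds of transcript, was higher. Against rosette_LIM, which shares the primed_4d libraries with the comparison above and is no independent test of it, 16 of 26 members were higher and 2 lower in primed_4d. There 36.1% of all tested genes were called, 17.1% higher and 19% lower, and 69.2% of the members.

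**Figure D1:**
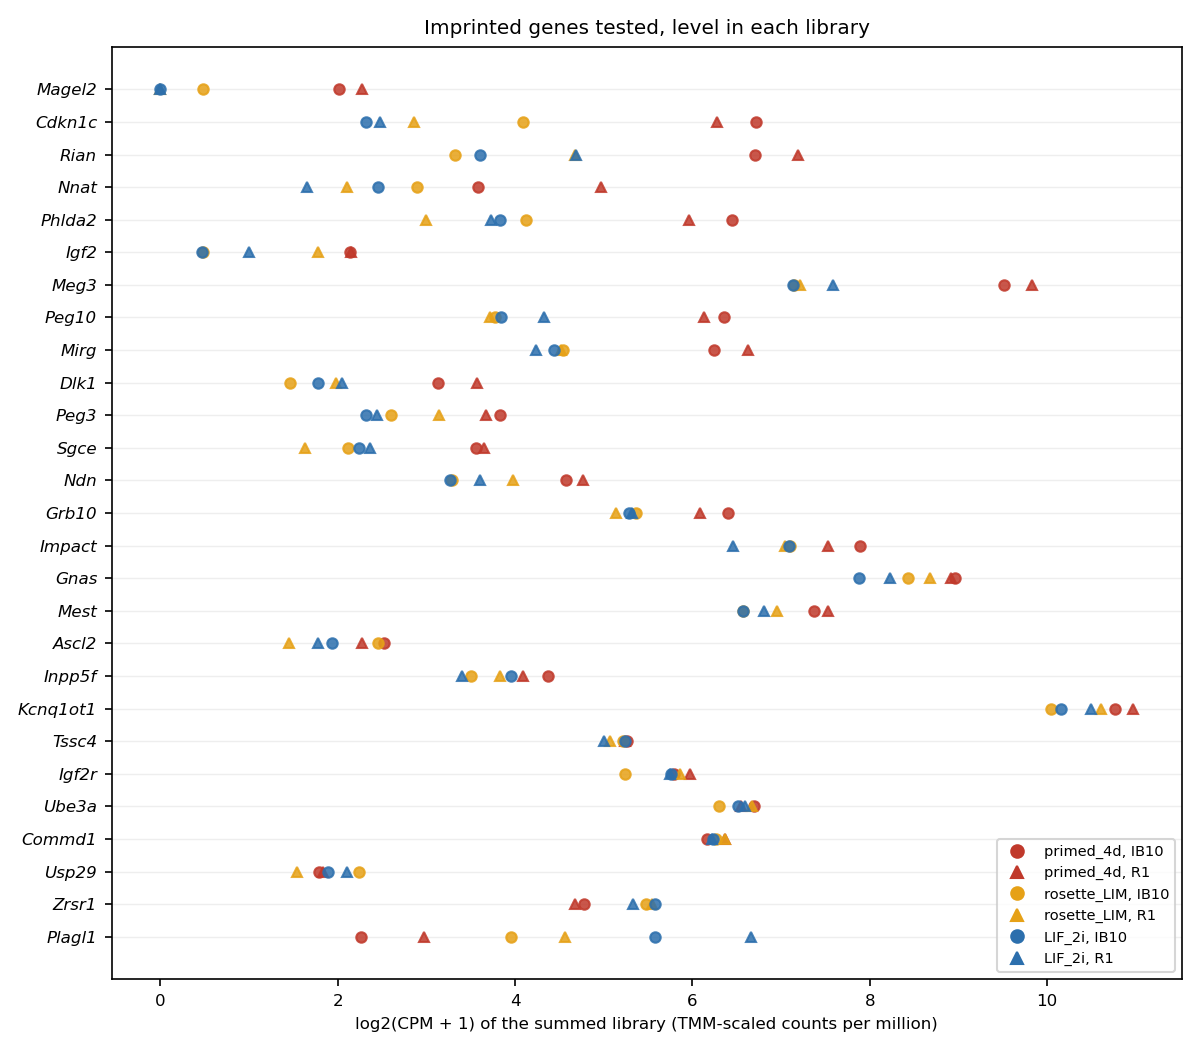
Level of each of the 27 tested imprinted genes in each of the 6 libraries, as log2(CPM + 1) on the horizontal axis; circles are IB10 and triangles R1, and genes run from the highest to the lowest fold change of primed_4d against LIF_2i. The red primed_4d points lie right of the others for the upper genes, such as Cdkn1c at 104 and 76.8 CPM, and left of them for Plagl1 at 3.79 and 6.85 CPM.

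**Figure D2:**
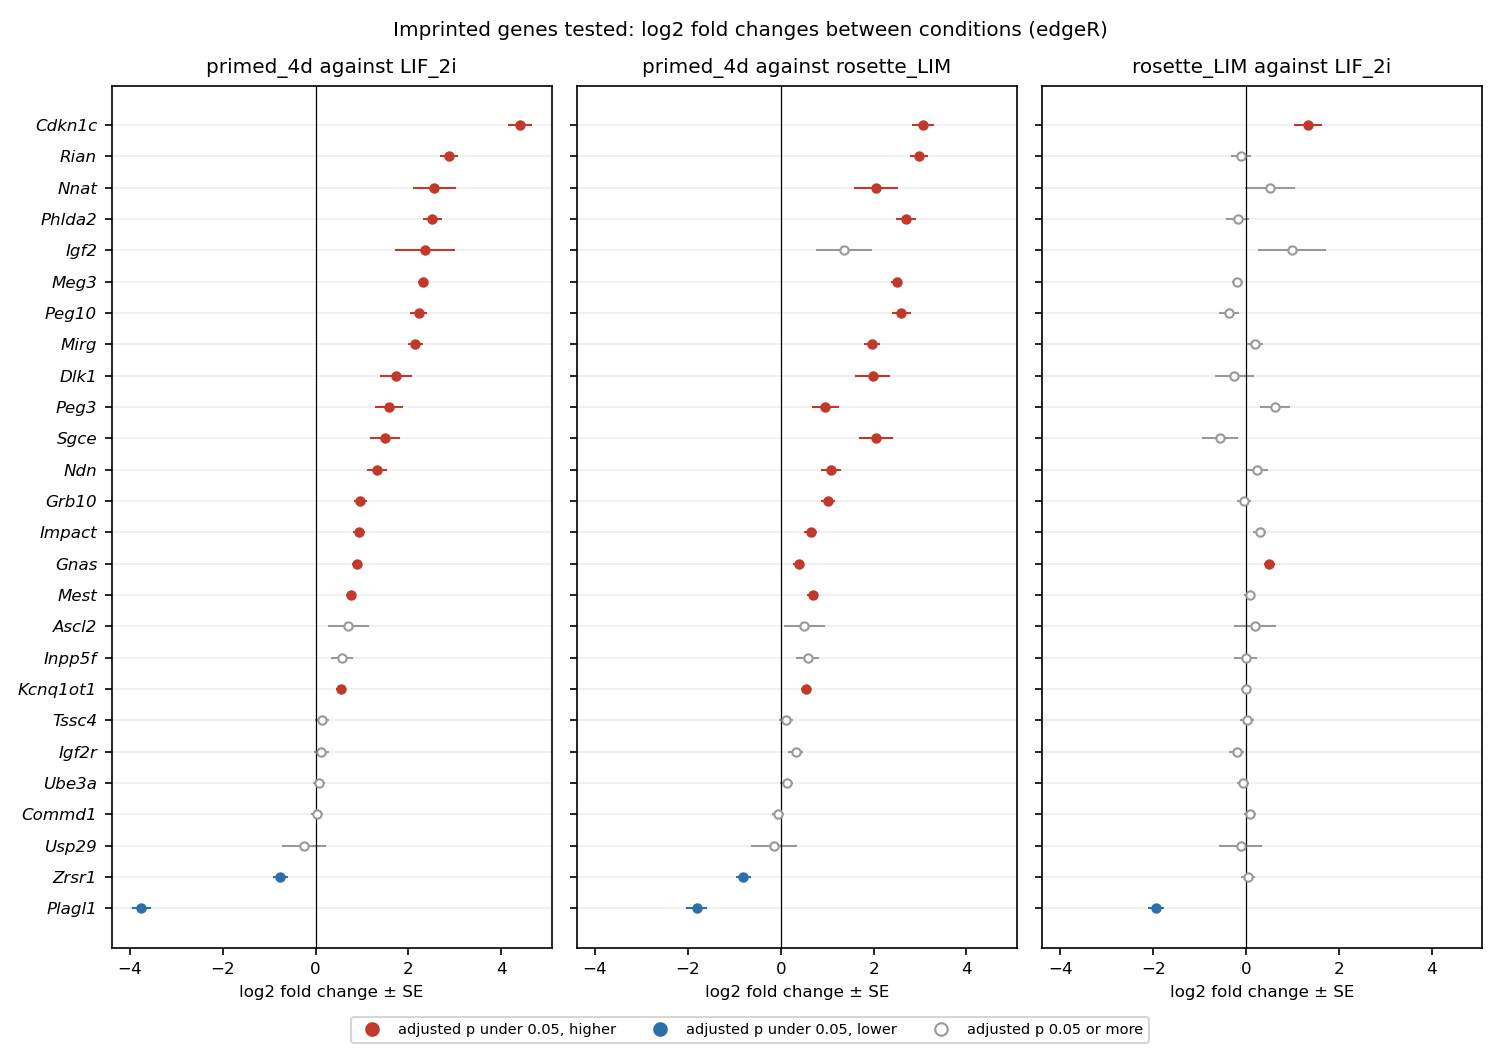
Log2 fold change with its standard error (bars) of 26 tested imprinted genes for primed_4d against LIF_2i, primed_4d against rosette_LIM and rosette_LIM against LIF_2i, from edgeR; Magel2 is left out because it was at 0 in LIF_2i. Filled points passed an adjusted p of 0.05, red higher and blue lower; the right panel has 3 filled points, against 19 and 18 in the other panels.

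The Dlk1/Meg3 domain on chromosome 12 carries a maternally expressed chain of noncoding RNAs, Meg3, Rian (a host of small nucleolar RNAs) and Mirg (a host of microRNAs), and the paternally expressed Dlk1, a transmembrane protein related to Notch ligands. All 4 were higher in primed_4d than in both other cultures. Meg3 (chr12:109541001-109571726; positions of genes are from GENCODE release M21 on GRCm38) was at 730 CPM in IB10 and 907 CPM in R1 in primed_4d, against 140 and 148 CPM in rosette_LIM and 140 and 191 CPM in LIF_2i. The primed_4d libraries lay above all others, and the rosette_LIM and LIF_2i libraries overlapped. The difference was 4.97-fold against LIF_2i (log2 2.31 ± 0.12, edgeR adjusted p = 3.08e-09) and 5.65-fold against rosette_LIM (log2 2.50 ± 0.12, edgeR adjusted p = 2.3e-09).
Rian (chr12:109603940-109661716) stood at 103 CPM in IB10 and 146 CPM in R1 in primed_4d, against 8.99 and 24.5 CPM in rosette_LIM and 11.2 and 24.7 CPM in LIF_2i. Here IB10 lay below R1 within every culture, and the primed_4d pair was clear of the rest. Primed_4d was 7.31-fold above LIF_2i (log2 2.87 ± 0.19, edgeR adjusted p = 3.98e-08) and 7.85-fold above rosette_LIM. Mirg (chr12:109729764-109749460) was at 74.9 CPM in IB10 and 97.6 CPM in R1 in primed_4d, against 22.3 and 21.9 CPM in rosette_LIM and 20.6 and 17.9 CPM in LIF_2i. It rose 4.44-fold against LIF_2i (log2 2.15 ± 0.17, edgeR adjusted p = 2.08e-07), with the other 4 libraries close together. Dlk1 (chr12:109452823-109463336) had 41 and 51 UMIs in the primed_4d libraries of IB10 and R1, which is 7.77 and 10.9 CPM, against 1.76 and 2.96 CPM in rosette_LIM and 2.44 and 3.15 CPM in LIF_2i. Its primed_4d libraries did not overlap with any other, and it rose 3.31-fold against LIF_2i (log2 1.73 ± 0.35, edgeR adjusted p = 0.00131). Annotated small RNA genes with rows of their own lie inside Rian and Mirg on the same strand, so reads of host and guest may have been divided between rows.

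In the Kcnq1 domain on chromosome 7, the growth-limiting genes Cdkn1c and Phlda2 were both higher in primed_4d than in both other cultures. Cdkn1c (chr7:143458339-143461050) encodes the cyclin-dependent kinase inhibitor p57 and is maternally expressed. It stood at 104 CPM in IB10 and 76.8 CPM in R1 in primed_4d, against 16.0 and 6.26 CPM in rosette_LIM and 3.98 and 4.58 CPM in LIF_2i. No culture overlapped another. At 21.1-fold above LIF_2i (log2 4.40 ± 0.25, edgeR adjusted p = 1.08e-08) it had the largest fold change among tested members with a UMI in both cultures. It was 8.38-fold above rosette_LIM (log2 3.07 ± 0.23, edgeR adjusted p = 1.6e-07), or 3.69 on the log2 scale without IB10 rosette_LIM. Phlda2 (chr7:143501545-143503150), a pleckstrin homology protein that restrains placental growth, was at 86.4 CPM in IB10 and 61.2 CPM in R1 in primed_4d, against 16.4 and 6.96 CPM in rosette_LIM and 13.2 and 12.3 CPM in LIF_2i. Primed_4d lay above all other libraries, while rosette_LIM and LIF_2i overlapped. It rose 5.73-fold against LIF_2i (log2 2.52 ± 0.21, edgeR adjusted p = 3.25e-07) and 6.48-fold against rosette_LIM. Ascl2, a transcription factor of the trophoblast, and Tssc4, a splicing assembly factor, were not called in any comparison, at 1.74 to 4.74 CPM and 31.2 to 37.5 CPM over the 6 libraries. The potassium channel gene Kcnq1 had at most 1 UMI in any library.

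Kcnq1ot1 (chr7:143203458-143296549), the paternally expressed antisense RNA that lies within Kcnq1 and silences its domain, had more UMIs than any other member in every library. It was at 1746 CPM in IB10 and 2009 CPM in R1 in primed_4d, against 1055 and 1565 CPM in rosette_LIM and 1145 and 1447 CPM in LIF_2i. Both primed_4d libraries lay above the other 4, which overlapped. Primed_4d was 1.46-fold above LIF_2i (log2 0.54 ± 0.10, edgeR adjusted p = 0.000902) and as far above rosette_LIM (log2 0.54 ± 0.11, edgeR adjusted p = 0.00101). Part of these sums lay in few wells. In R1 primed_4d a single well held 3038 Kcnq1ot1 UMIs, which was 18.3% of the 16618 UMIs of that well and 32.3% of the gene's UMIs in the library. Wells under 6000 UMIs were richer in it than deeper wells in every library except R1 LIF_2i. In primed_4d they stood at 11224 CPM of their own UMIs in IB10 and 10151 CPM in R1, against 1662 and 1834 CPM in the deeper wells of these libraries. In rosette_LIM the shallow wells held 3800 CPM in IB10 and 8923 CPM in R1, and the deeper wells 1024 and 1519 CPM. In LIF_2i the shallow wells held 3050 CPM in IB10 and 1013 CPM in R1, and the deeper wells 1141 and 1476 CPM. The median well of 6000 or more UMIs held 14.9 Kcnq1ot1 UMIs per 10000 in IB10 and 10.3 in R1 in primed_4d, against 10.6 and 13.3 in LIF_2i, so that primed_4d was higher in IB10 and lower in R1 by this measure. With wells under 6000 or over 200000 UMIs and the 10 wells of each library richest in the gene left out, a setting chosen after the data were seen, the log2 fold change was 0.11 against LIF_2i (edgeR adjusted p = 0.663) and 0.15 against rosette_LIM (edgeR adjusted p = 0.561). Leaving out wells by depth alone kept the call (0.46, edgeR adjusted p = 0.00633). A UMI of the gene was seen in 98.2% to 99.4% of cells of all libraries at equal depth.

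**Figure D3:**
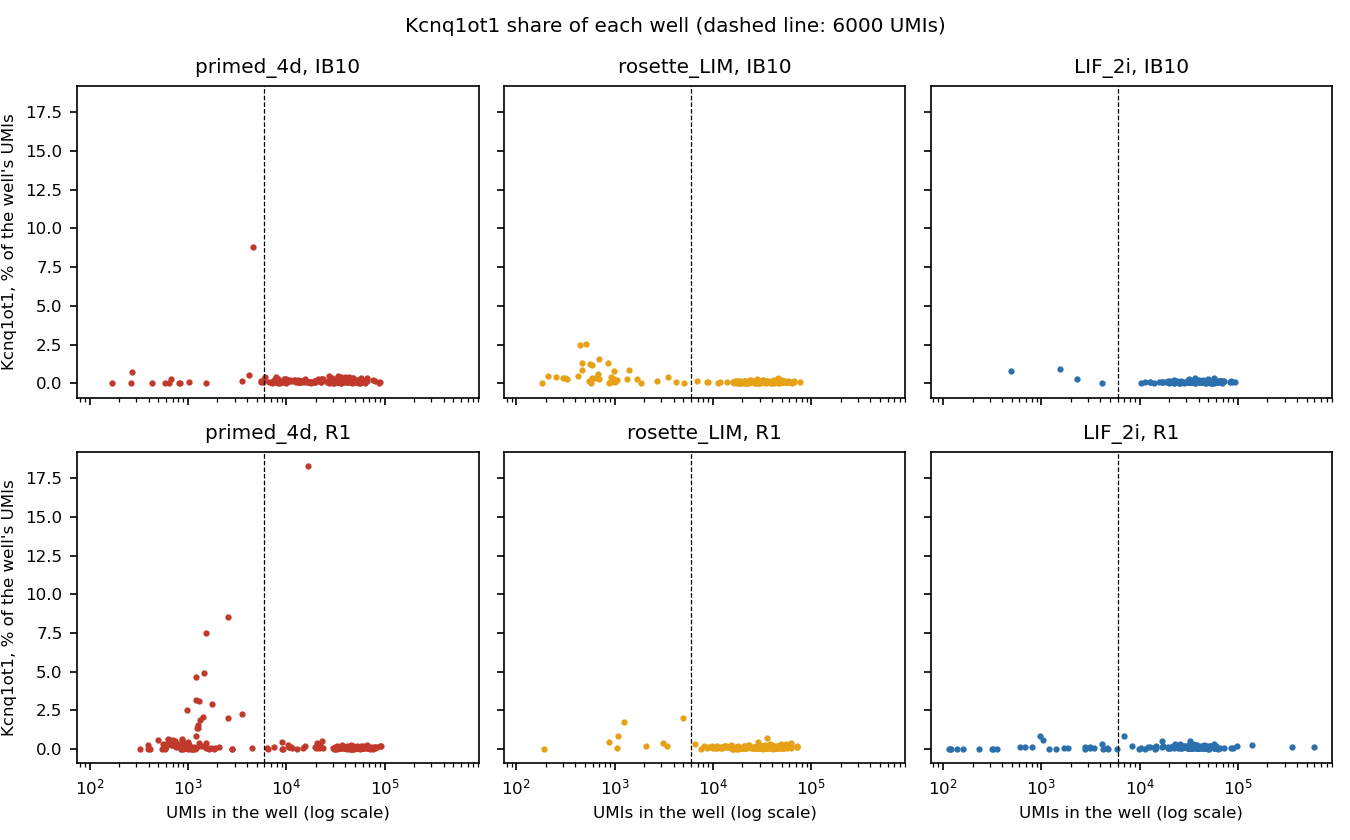
Kcnq1ot1 as a percentage of all UMIs of a well (vertical axis) against the UMIs of the well (horizontal, log scale), 1 point per well, for each culture and line; the dashed line stands at 6000 UMIs. Most wells lie near 0 on this scale, and the R1 primed_4d library has 1 well at 18.3% and 16 wells over 1%.

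Among paternally expressed genes of growth and placenta, Peg10, a protein derived from a retrotransposon, and its divergent neighbour Sgce, epsilon-sarcoglycan, were both higher in primed_4d. Peg10 (chr6:4747306-4760517) was at 81.1 CPM in IB10 and 69.1 CPM in R1 in primed_4d, against 12.7 and 12.2 CPM in rosette_LIM and 13.3 and 19.03 CPM in LIF_2i. It rose 4.67-fold against LIF_2i (log2 2.22 ± 0.19, edgeR adjusted p = 3.94e-07) and 6.05-fold against rosette_LIM, with no overlap. Sgce (chr6:4674350-4747207) was at 10.8 CPM in IB10 and 11.6 CPM in R1 in primed_4d, against 3.32 and 2.09 CPM in rosette_LIM and 3.72 and 4.15 CPM in LIF_2i. Primed_4d lay highest and rosette_LIM lowest, with no overlap, but rosette_LIM against LIF_2i was not called (log2 −0.55 ± 0.39, edgeR adjusted p = 0.485). Sgce rose 2.83-fold against LIF_2i (log2 1.503 ± 0.32, edgeR adjusted p = 0.00207), a call lost without IB10 LIF_2i (edgeR adjusted p = 0.0571). Mest (chr6:30723547-30748465), a hydrolase, was at 164 CPM in IB10 and 184 CPM in R1 in primed_4d, 94.4 and 123 CPM in rosette_LIM and 93.8 and 111 CPM in LIF_2i. Its rise was 1.70-fold against LIF_2i (log2 0.77 ± 0.12, edgeR adjusted p = 0.000114), and both primed_4d libraries exceeded the rest. Peg3 (chr7:6703892-6730431), a zinc finger protein, had 70 UMIs in IB10 and 55 in R1 in primed_4d (13.3 and 11.8 CPM), against 5.08 and 7.83 CPM in rosette_LIM and 3.98 and 4.43 CPM in LIF_2i. The cultures did not overlap, but rosette_LIM against LIF_2i was not called (log2 0.62 ± 0.32, edgeR adjusted p = 0.316). In primed_4d Peg3 rose 2.99-fold against LIF_2i (log2 1.58 ± 0.30, edgeR adjusted p = 0.000843) and 1.95-fold against rosette_LIM (edgeR adjusted p = 0.0206). Against rosette_LIM the call was lost with DESeq2 (adjusted p = 0.154) and, in edgeR, without IB10 rosette_LIM (adjusted p = 0.194) or IB10 primed_4d (adjusted p = 0.214). Usp29 (chr7:6730578-6967219), a ubiquitin protease read from the shared stretch of promoter shown above, was at 2.46 CPM in IB10 and 2.57 CPM in R1 in primed_4d and 2.69 and 3.29 CPM in LIF_2i (log2 −0.25 ± 0.48, edgeR adjusted p = 0.709). The difference between the 2 neighbours was not tested.

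Igf2 and H19 were scarce. Igf2 (chr7:142650766-142666816), the fetal growth factor, had 18 UMIs in IB10 and 16 in R1 in primed_4d, against 2 and 14 UMIs in rosette_LIM and 3 and 7 UMIs in LIF_2i. R1 rosette_LIM came near the primed_4d libraries, and the LIF_2i libraries were clear of them. Neither LIF_2i library reached the cut of the filter, which Igf2 would not have passed without primed_4d. Its call against LIF_2i thus rests partly on how the gene was selected. Igf2 was called 5.15-fold higher against LIF_2i (log2 2.37 ± 0.65, edgeR adjusted p = 0.00962) and was not called against rosette_LIM (log2 1.36 ± 0.61, edgeR adjusted p = 0.0941). DESeq2 did not call it (adjusted p = 0.0741), and edgeR did not without IB10 primed_4d (log2 1.56, against 3.52 without R1 primed_4d; adjusted p = 0.175 and 0.0064) or either LIF_2i library (adjusted p = 0.103 and 0.104). H19 (chr7:142575529-142578143), its maternally expressed noncoding neighbour, had 8 UMIs in IB10 and 23 in R1 in primed_4d, none in rosette_LIM, and 0 and 2 in LIF_2i. It did not pass the filter. Its ratio against LIF_2i was 23.0 (95% counting interval 5.86 to 199), and it was at least 11.3-fold higher than in rosette_LIM, taking 3 counts over the group as the floor. Without the filter edgeR called it against LIF_2i (adjusted p = 0.000191), and so did DESeq2 (adjusted p = 0.027). Igf2r (chr17:12682406-12769664), the receptor that clears IGF2, was at 54.6 CPM in IB10 and 61.8 CPM in R1 in primed_4d, 36.9 and 57.1 CPM in rosette_LIM and 53.4 and 52.9 CPM in LIF_2i. It was not called (edgeR adjusted p = 0.567 against LIF_2i), and its antisense RNA Airn had 1 to 6 UMIs per library. Grb10 (chr11:11930508-12038683), an adaptor that dampens insulin receptor signalling, was at 83.4 CPM in IB10 and 67.2 CPM in R1 in primed_4d, 40.2 and 34.1 CPM in rosette_LIM and 38.0 and 38.8 CPM in LIF_2i. It rose 1.95-fold against LIF_2i (log2 0.97 ± 0.14, edgeR adjusted p = 9.7e-05), with no overlap between primed_4d and the rest.

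The members Nnat, Ndn and Impact, all active in the brain, were higher in primed_4d as well. Nnat (chr2:157560078-157562522), a membrane proteolipid, was at 10.99 CPM in IB10 and 30.4 CPM in R1 in primed_4d, against 6.45 and 3.31 CPM in rosette_LIM and 4.49 and 2.15 CPM in LIF_2i. R1 was above IB10 in primed_4d and below it in the other cultures, which overlapped each other and not primed_4d. It rose 5.91-fold against LIF_2i (log2 2.56 ± 0.47, edgeR adjusted p = 0.000585) and 4.14-fold against rosette_LIM (log2 2.05 ± 0.47, edgeR adjusted p = 0.00316). Against LIF_2i the log2 value was 1.31 without R1 primed_4d, 3.78 without IB10 primed_4d, 3.44 without IB10 LIF_2i and 1.81 without R1 LIF_2i, where the call was lost (edgeR adjusted p = 0.0568). Against rosette_LIM it was 3.22 without IB10 primed_4d, 2.87 without IB10 rosette_LIM, 1.26 without R1 rosette_LIM and 0.75 without R1 primed_4d, where the call was lost (edgeR adjusted p = 0.221). Ndn (chr7:62346569-62350262), necdin, was at 22.7 CPM in IB10 and 26.3 CPM in R1 in primed_4d, 8.79 and 14.8 CPM in rosette_LIM and 8.59 and 11.2 CPM in LIF_2i. Primed_4d lay above the rest, and the other cultures overlapped. Ndn rose 2.50-fold against LIF_2i (log2 1.32 ± 0.21, edgeR adjusted p = 0.000209). Magel2 (chr7:62377010-62381640), of the same MAGE family, had 16 UMIs in IB10 and 18 in R1 in primed_4d, 2 and 0 in rosette_LIM and none in LIF_2i. It was at least 16.8-fold higher in primed_4d than in LIF_2i, taking 3 counts over the group as the floor. Against rosette_LIM the ratio was 18.6 (95% counting interval 4.76 to 160), and both rosette_LIM UMIs lay in 1 well of 3470 UMIs. Since Magel2 passed the filter only through its primed_4d counts, these values are a description and no test is given. Impact, a regulator of the amino acid sensor GCN2 on chromosome 18, was at 237 CPM in IB10 and 184 CPM in R1 in primed_4d, 136 and 131 CPM in rosette_LIM and 135 and 86.8 CPM in LIF_2i. It rose 1.91-fold against LIF_2i (log2 0.93 ± 0.13, edgeR adjusted p = 6.75e-05) with no overlap. Ube3a, a ubiquitin ligase imprinted in neurons, was at 77.6 to 103 CPM over the 6 libraries and was not called in any comparison. Snrpn was listed at 0 in every well. Its reads may have been given to another row or lost in the counting, which the sources used here do not settle, so the 0 is not read as a level or a limit.

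Gnas (chr2:174284320-174346744) encodes the stimulatory G protein subunit and has imprinted alternative transcripts that these counts do not separate. It was at 496 CPM in IB10 and 483 CPM in R1 in primed_4d, against 344 and 410 CPM in rosette_LIM and 235 and 298 CPM in LIF_2i. The cultures did not overlap. It rose 1.85-fold in primed_4d against LIF_2i (log2 0.89 ± 0.11, edgeR adjusted p = 2.54e-05) and 1.31-fold against rosette_LIM (log2 0.39 ± 0.11, edgeR adjusted p = 0.015). The call against rosette_LIM was lost in edgeR without the line block (edgeR adjusted p = 0.0576) and without IB10 primed_4d (log2 0.22, edgeR adjusted p = 0.236).

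Plagl1 (chr10:13060504-13131694), a paternally expressed zinc finger factor that binds at many other imprinted genes, fell in primed_4d. It was at 3.79 CPM in IB10 and 6.85 CPM in R1 in primed_4d, against 14.5 and 22.6 CPM in rosette_LIM and 46.8 and 99.9 CPM in LIF_2i. No culture overlapped another, and R1 exceeded IB10 in each. Primed_4d was 13.5-fold below LIF_2i (log2 −3.75 ± 0.21, edgeR adjusted p = 7.07e-09) and 3.51-fold below rosette_LIM (log2 −1.81 ± 0.23, edgeR adjusted p = 3.08e-05). Zrsr1 (chr11:22972005-22976496), a splicing factor gene that arose by retrotransposition from its X-linked parent Zrsr2, was at 26.3 CPM in IB10 and 24.6 CPM in R1 in primed_4d, 43.6 and 45.6 CPM in rosette_LIM and 46.9 and 39.2 CPM in LIF_2i. Both primed_4d libraries lay below the other 4, which overlapped. Zrsr1 was 1.69-fold lower than in LIF_2i (log2 −0.76 ± 0.16, edgeR adjusted p = 0.00173), a call lost without IB10 LIF_2i (−0.63, edgeR adjusted p = 0.0754). Its reads may be uncertain, since the counting could have split them with Zrsr2 or with Commd1, the overlapping gene on the opposite strand. Commd1, a COMMD family protein, was at 70.7 to 81.3 CPM in all libraries and was not called. Inpp5f, a phosphoinositide phosphatase, was at 19.7 CPM in IB10 and 16.0 CPM in R1 in primed_4d and 14.5 and 9.58 CPM in LIF_2i, and missed the threshold (log2 0.57 ± 0.24, edgeR adjusted p = 0.0734). Besides H19, Airn, Snrpn and Kcnq1, the filter left out Zim1, with at most 2 UMIs per library, and Copg2, a coatomer subunit, with 4 to 10 UMIs per library. Members overlap counted genes on the opposite strand in the pairs Igf2r and Airn, Airn and Mas1, Mest and Copg2, Kcnq1 and Kcnq1ot1, Zrsr1 and Commd1, Gnas and Nespas, Nnat and Blcap, Tssc4 and Trpm5, and Usp29 and Zim3. The sources used here do not say whether the counting used strand.

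Rosette_LIM was set against LIF_2i to ask what the rosette culture changes while MEK stays inhibited. Plagl1 fell 3.84-fold (log2 −1.94 ± 0.17, edgeR adjusted p = 1.04e-05). Cdkn1c rose 2.52-fold (log2 1.33 ± 0.30, edgeR adjusted p = 0.0185) and Gnas 1.42-fold (log2 0.50 ± 0.11, edgeR adjusted p = 0.0176). These were the only calls among 27 tested members (11.1%), against 5.54% of all genes, of which 3.19% were higher and 2.35% lower, and the median of the members was 0.02. In IB10, Cdkn1c had 82 UMIs in rosette_LIM against 31 in LIF_2i, a scaled ratio of 4.03 with a 95% counting interval of 2.64 to 6.30. In R1 it had 36 against 32 UMIs, a ratio of 1.37 (0.826 to 2.28), and the difference between the lines was not tested. The richest well held 18.3% of the gene's UMIs in IB10 rosette_LIM and 11.1% in R1 rosette_LIM. In LIF_2i the richest well held 12.9% in IB10 and 28.1% in R1. Cdkn1c was thus spread unevenly over wells, which the counting intervals do not cover. Without IB10 rosette_LIM its log2 fold change was 0.70 (edgeR adjusted p = 0.273). The calls of Cdkn1c and Gnas were lost in edgeR without R1 LIF_2i (log2 1.76 and 0.62, edgeR adjusted p = 0.074 and 0.19), without IB10 LIF_2i (0.82 and 0.39, edgeR adjusted p = 0.464 and 0.425) and without the line block (edgeR adjusted p = 0.11 and 0.092). Plagl1 was called under all of these. Rosette_LIM and LIF_2i also differ in passage number, 33 against 28 in IB10 and 28 against 24 in R1, which cannot be told apart from the culture.

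Across cells, the shares with a UMI were set at 6000 UMIs per cell, leaving out shallower wells, because depth differs between libraries. At that depth 104 to 184 cells per library remained. Meg3 was seen in 84.2% of cells in IB10 (95% exact interval 77.7 to 89.3) and 92.9% in R1 (86.6 to 97.3) in primed_4d. The shares were 45.4% and 47.1% in rosette_LIM, and 46.9% and 58.6% in LIF_2i. Without thinning, over all wells, primed_4d stood at 91.5% and 70.2%, and LIF_2i at 84.0% and 80.3%, so the order in R1 was the opposite there. The median cell of 6000 or more UMIs held 5.70 Meg3 UMIs per 10000 in IB10 and 7.02 in R1 in primed_4d, against 0.936 and 1.56 in LIF_2i. The median cell thus held more Meg3 in primed_4d in both lines. Cdkn1c was seen in 34.2% of cells in IB10 and 29.0% in R1 in primed_4d, 7.43% and 3.89% in rosette_LIM and 2.26% and 2.30% in LIF_2i. Plagl1 ran the other way, at 2.00% in IB10 and 3.72% in R1 in primed_4d, 7.61% and 11.9% in rosette_LIM and 23.7% and 45.6% in LIF_2i. Phlda2 was seen in 37.6% of primed_4d cells in IB10 and 27.4% in R1, against 7.13% and 7.14% of LIF_2i cells. The intervals cover counting error only, and cells are not replicates, so no test was made between cultures.

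**Figure D4:**
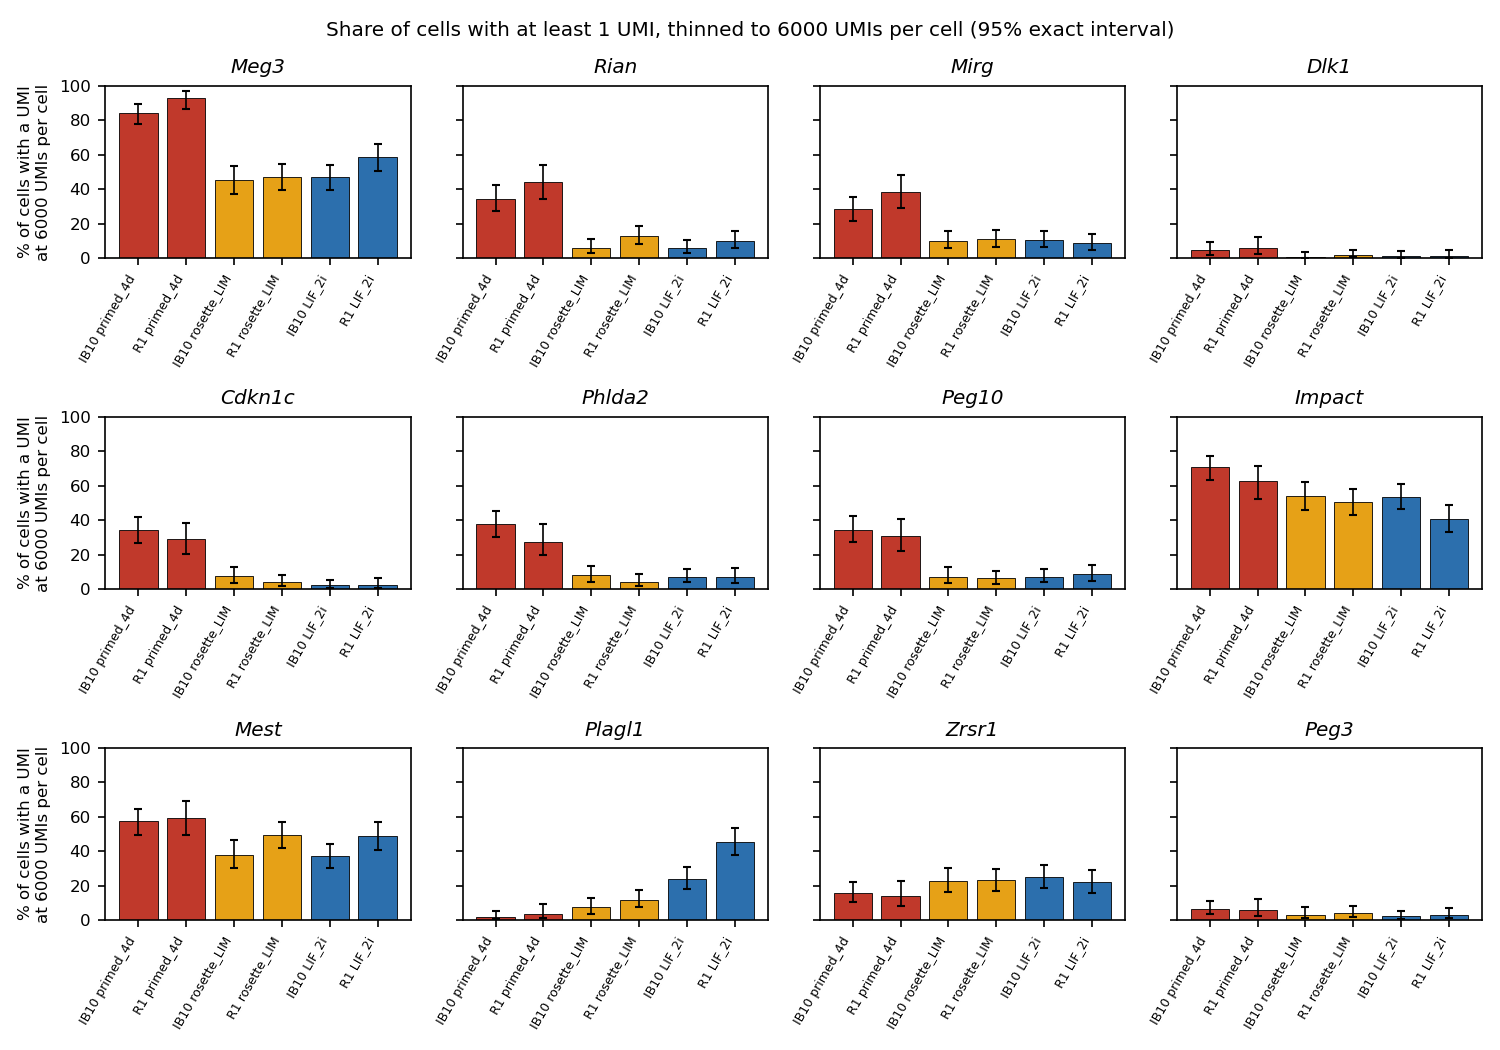
Percentage of cells with at least 1 UMI of 12 imprinted genes, at 6000 UMIs per cell, in each library; bars carry 95% exact binomial intervals, which cover counting error only. Meg3 stands at 84.2% and 92.9% in primed_4d, while Plagl1 has its tallest bar, 45.6%, in R1 LIF_2i.

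How often transcripts of the Dlk1/Meg3 domain were seen in the same cells was described at 6000 UMIs per cell. The share of cells with both Meg3 and Rian was 1.04 to 1.32 times the product of the single shares over the 6 libraries, and that with both Meg3 and Mirg 1.06 to 1.51 times. For Meg3 with the scarce Dlk1 it was 0.847 to 1.24 times, and for Rian with Mirg 0.823 to 1.64 times. In the Kcnq1 domain, Cdkn1c and Phlda2 had ratios of 0.745 to 1.55, and 1.142 in IB10 and 1.141 in R1 in primed_4d. For the divergent neighbours Peg10 and Sgce the ratios were 0.387 to 2.39, and 1.36 in IB10 and 1.35 in R1 in primed_4d. Outside primed_4d both genes of these 2 pairs were seen together in 0.125% to 0.955% and 0.0330% to 0.447% of cells, so that the ratios there rest on very few cells. The same limit holds outside primed_4d for Meg3 with Dlk1, at 0.494% to 0.952%, and for Rian with Mirg, at 0.487% to 2.29%. Other neighbours stood nearer to 1, with Commd1 and Zrsr1 at 0.932 to 1.10 and Ndn and Ube3a at 0.869 to 1.19. Kcnq1ot1, seen in nearly every cell, was at 0.991 to 1.006 with Cdkn1c and 0.992 to 1.007 with Phlda2. A gene seen in nearly every cell cannot give a ratio far above 1, so these values say nothing of a link. The same ceiling presses on pairs with Meg3 in primed_4d and on pairs with Gnas. For Meg3 with Mest, which lies on another chromosome, the ratio was 0.965 to 1.03, for Meg3 with Impact 0.986 to 1.065, for Meg3 with Gnas 0.984 to 1.015 and for Meg3 with Grb10 0.897 to 1.05. These are descriptions, since cells of a library share their source.

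The lines were compared over the 3 cultures, IB10 against R1. Plagl1 was lower in IB10 (log2 −0.91 ± 0.15, 1.89-fold, edgeR adjusted p = 0.0139), and so was Rian (log2 −0.90 ± 0.16, 1.87-fold, edgeR adjusted p = 0.017). These 2 of 27 tested members (7.41%) were the only calls, against 0.752% of all genes, with 0.24% higher and 0.512% lower. Both were lower in IB10 in 3 of 3 cultures. The IB10 to R1 ratio of Plagl1 was 0.554 in primed_4d (95% counting interval 0.300 to 0.998), 0.639 in rosette_LIM (0.474 to 0.857) and 0.469 in LIF_2i (0.412 to 0.533). For Rian it was 0.710 in primed_4d (0.633 to 0.796), 0.366 in rosette_LIM (0.257 to 0.514) and 0.451 in LIF_2i (0.344 to 0.587). The nearby Mirg ran at 0.767, 1.02 and 1.16 in the same order and Meg3 at 0.804, 0.948 and 0.733, and neither was called (edgeR adjusted p = 0.886 and 0.214). In LIF_2i the richest well held 18.0% of the Rian UMIs in R1 and 9.20% in IB10, against 5.68% to 6.64% in the other libraries. The counting intervals do not cover such uneven spread over wells. The medians of all tested genes of chromosomes 10 and 12, which carry Plagl1 and Rian, differed by −0.03 and 0.02 between the lines, while chromosome 8, which carries no member, differed by −0.31. Both calls were lost without either LIF_2i library (edgeR adjusted p between 0.218 and 0.585), at log2 values of −0.71 for Plagl1 and −0.83 to −0.82 for Rian. No member differed by 2-fold or more between the lines in every culture.

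**Figure D5:**
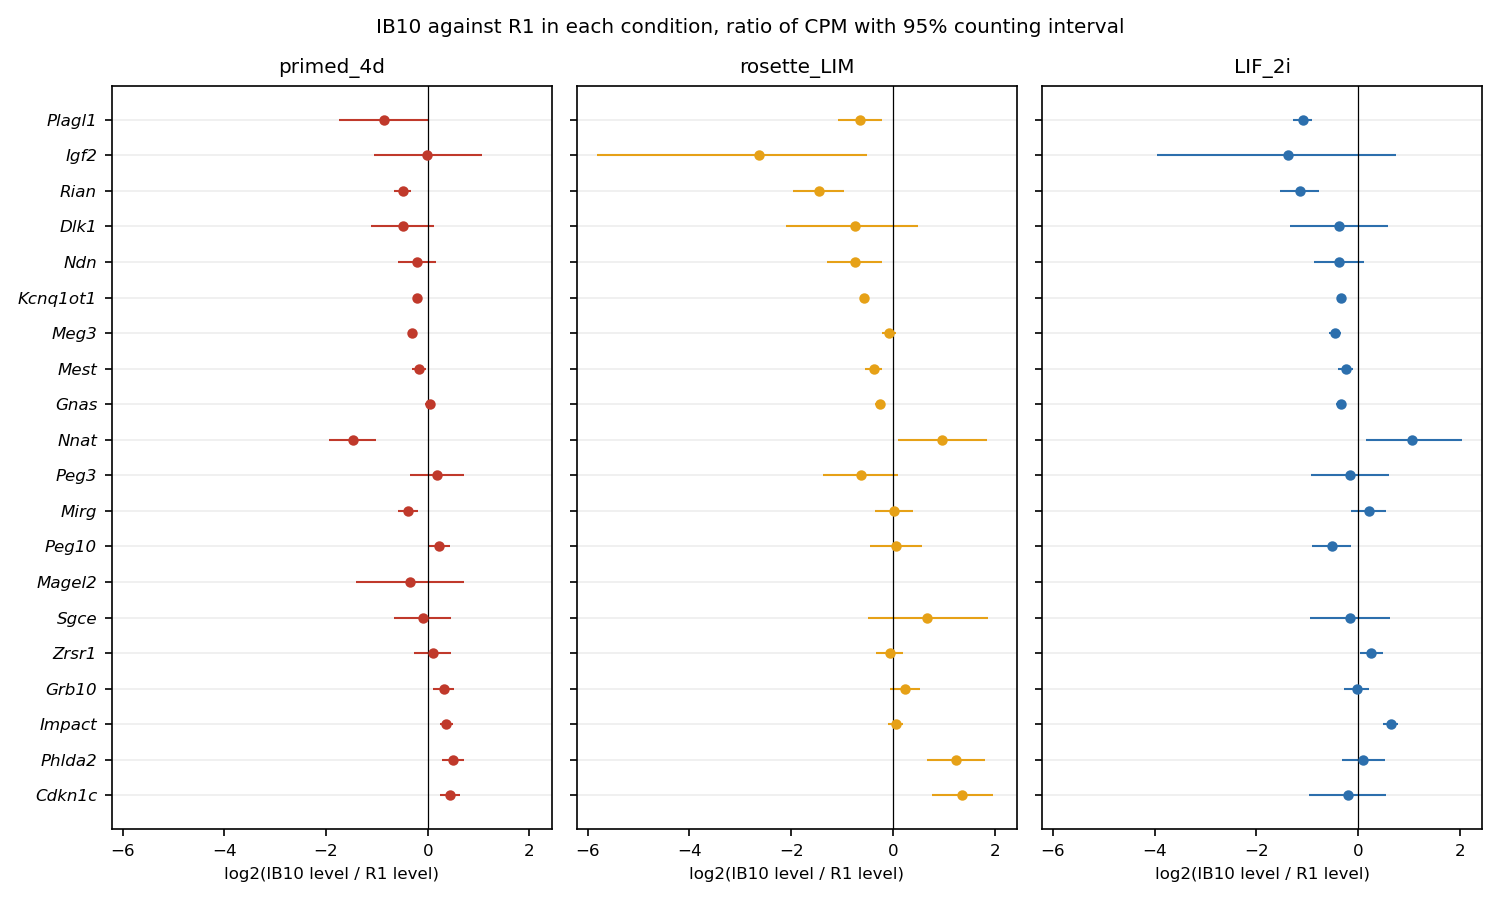
Log2 ratio of the IB10 level to the R1 level in each culture for the 20 members called in at least 1 comparison, with 95% counting intervals (bars); genes are ordered by the fitted difference, and Magel2, included here by its fitted value, is shown for primed_4d alone. Plagl1 and Rian lie left of 0 in all 3 panels, and Nnat lies left of 0 in primed_4d (ratio 0.362) and right of it in rosette_LIM (1.95) and LIF_2i (2.09).

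Kcnq1ot1 was lower in IB10 in 3 of 3 cultures, at ratios of 0.869 in primed_4d, 0.674 in rosette_LIM and 0.791 in LIF_2i, and missed the threshold (log2 −0.37 ± 0.09, edgeR adjusted p = 0.0668). It was called with library totals in place of TMM factors (edgeR adjusted p = 0.044) and without IB10 or R1 primed_4d (edgeR adjusted p = 0.0231 and 0.0193). With wells under 6000 or over 200000 UMIs left out it was −0.34 (edgeR adjusted p = 0.153), and with the 10 richest wells of each library left out as well −0.11 (edgeR adjusted p = 0.885). Cdkn1c and Phlda2 had ratios of 1.36 and 1.41 in primed_4d, 2.56 and 2.36 in rosette_LIM and 0.868 and 1.07 in LIF_2i, and were not called (edgeR adjusted p = 0.276 and 0.204), although Phlda2 was above 1 in 3 of 3 cultures. Nnat was 0.362 in primed_4d, 1.95 in rosette_LIM and 2.09 in LIF_2i. With 1 library per line and culture, whether a line difference changes with the culture has no residual degrees of freedom and could not be tested.

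Transcripts of genes whose proteins write, keep or remove imprints were described from a list of 22, of which 21 were tested. In primed_4d against LIF_2i, 8 were higher, 5 lower and 8 not called, which is 61.9% called against 37.9% of all genes, with a median of 0.11. Against rosette_LIM, 8 were higher and 6 lower, or 66.7% against 36.1% of all genes. Dnmt3l, the cofactor of the de novo methyltransferases, was at 196 CPM in IB10 and 133 CPM in R1 in primed_4d, against 64.1 and 23.8 CPM in rosette_LIM and 38.5 and 68.0 CPM in LIF_2i. It rose by 1.58 ± 0.31 on the log2 scale against LIF_2i (edgeR adjusted p = 0.000955), and Dnmt3a and Dnmt3b rose by 2.56 ± 0.13 and 3.36 ± 0.16. Zfp57 was at 14.0 CPM in IB10 and 10.9 CPM in R1 in primed_4d and 41.6 and 43.8 CPM in LIF_2i, and fell (log2 −1.76 ± 0.22, edgeR adjusted p = 1.88e-05). Uhrf1, which guides the maintenance methyltransferase to replicated DNA, fell by 0.87 on the log2 scale (SE 0.11, edgeR adjusted p = 2.3e-05), and Trim28, the corepressor that ZFP57 recruits, by 0.30 (edgeR adjusted p = 0.0227). Dnmt1, the maintenance enzyme, missed the threshold (log2 −0.27 ± 0.11, edgeR adjusted p = 0.0644). The others of the list called higher were Dppa3 (log2 0.94), Tet3 (0.94), Smchd1 (0.58), Ehmt1 (0.41) and Hells (0.33). Also called lower were Tet2 (log2 −1.98) and Setdb1 (−0.90). The list, which pools genes that write, keep and remove imprints, thus did not move in 1 direction as a whole. In rosette_LIM against LIF_2i, 1 of the 21 was higher (Dnmt3a) and 2 lower (Dnmt3b and Uhrf1), or 14.3% against 5.54% of all genes. Between the lines, edgeR called none of the 21, against 0.752% of all genes.

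A second list held 52 other imprinted genes, some imprinted only in placenta or 1 tissue, of which 47 had a row and 30 were tested. In primed_4d against LIF_2i, 9 were higher and 6 lower, or 50% called against 37.9% of all genes, with a median of 0.13, beside 73.1% and 0.95 for the 26 members. Against rosette_LIM, 6 were higher and 6 lower, or 40% against 36.1% of all genes, with a median of 0.15. In rosette_LIM against LIF_2i, 1 was higher and none lower, or 3.33% against 5.54% of all genes. Between the lines edgeR called none, against 0.752% of all genes. Whether the members differ from this second list was not tested.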

How the data were processed

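SORT-seq libraries of 2 cell lines in 3 cultures were analysed, 6 in all, with 1128 wells. Per the submitters' processing notes, reads were aligned with BWA to mm10/GRCm38; versions, the annotation used for counting and the sharing of plates are not given in those notes or the labels. The deposited values are expected counts: all 1297 distinct values matched, within 0.005, whole UMI counts that the authors corrected for molecules drawing the same of 4096 UMIs. The 91 ERCC spike-in rows (1.75% of counts) were left out. Per library, counts were added up across wells and rounded to whole numbers. edgeR 4.0.16 (R 4.3.3) fitted culture and line to all 6 libraries with TMM factors and a quasi-likelihood test, two-sided, on 12098 genes kept by filterByExpr (minimum count 10), with Benjamini-Hochberg adjustment at 0.05. SE is the log2 fold change divided by the root of the F statistic. The line is a block because the labels name the same 2 lines in every culture; differences between the lines correlated between cultures by 0.205, 0.152 and 0.090. The labels name no replicate cultures of a line, and p-values therefore reflect only how these 6 libraries vary. Shares of cells are the expectation at 6000 UMIs per cell, with exact Clopper-Pearson intervals (scipy 1.17.1). Intervals and floors of 3 counts cover counting error only. The self-test on simulated counts was passed. It gave all genes the same spread, held no line differences and no wells, and altered no scarce genes. It therefore cannot show how calls of scarce or unevenly spread members behave. DESeq2 1.42.0, other scalings, no filter, other wells, no block and leaving out each library were tried. The members, lists and the rule that every called member is given with its values were chosen with earlier results of these data known.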

Additional observations from a re-analysis of the deposited data

Results flagged for a closer look

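In library sums, Kcnq1ot1 differed in opposite directions in the lines between rosette_LIM and LIF_2i. In IB10 the ratio of rosette_LIM to LIF_2i was 0.921 (95% counting interval 0.891 to 0.953), and in R1 it was 1.08 (1.05 to 1.11). The difference between the lines was not tested, since each line has 1 library per culture. The counting intervals take wells as alike, and Kcnq1ot1 was spread very unevenly over wells. By the median well of 6000 or more UMIs it was lower in rosette_LIM in both lines, at 9.22 UMIs per 10000 in rosette_LIM against 10.6 in LIF_2i in IB10, and 12.8 in rosette_LIM against 13.3 in LIF_2i in R1.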

How the results depend on the processing

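With no replicate block, the count of called members in rosette_LIM against LIF_2i was 1 in place of 3. It was 20 for primed_4d against LIF_2i, as with the block, and 18 in place of 19 for primed_4d against rosette_LIM. These and the counts below include Magel2, which passed the filter only through primed_4d. Its part in the primed_4d counts is therefore no support for them. The block rests on the line names in the labels. Without any filter, 5 members were called between IB10 and R1, with Impact, Phlda2 and Kcnq1ot1 added to Plagl1 and Rian. Leaving out 1 library gave counts of 1 to 3 for rosette_LIM against LIF_2i, 0 to 4 for IB10 against R1, 18 to 22 for primed_4d against LIF_2i and 18 to 21 for primed_4d against rosette_LIM. The counts of 1 and 0 came without either LIF_2i library, and the count of 4 without either rosette_LIM library, when Impact and Meg3 were added. The cause was not tested. Of 44 changes of single members, 4 lost the call with DESeq2, and 0 with DESeq2 size factors, library totals alone, no filter or the depth filter. The 44 include Magel2 in primed_4d against both other cultures, and both of these were among the 4 lost. None of the 44 changed direction under any alternative run. Leaving out IB10 or R1 cost 3 and 2 calls in primed_4d, 2 and 1 in rosette_LIM, and 7 and 6 in LIF_2i. Leaving out also the 10 wells richest in Kcnq1ot1, chosen after the data were seen, cost 3. Of 198 shares of cells, 149 moved beyond their interval without thinning and 80 at 10000 UMIs. Depth limits the genes under about 1.8 CPM, which 6 members did not exceed in 2 libraries, and the design of 1 library per line and culture leaves the interaction of line and culture untested.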
